A study of Rattus norvegicus with 9 samples.

Results

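The enzymes of triglyceride synthesis were examined as messenger RNA in rat liver. The 10 members, chosen by name, were Gpam, Agpat2, Agpat3, Lpin1, Lpin2, Lpin3, Dgat1, Dgat2, Mogat1 and Mogat2, and each matched 1 row among the 24496 genes of the count table. Liver came from 9 individual female Wistar rats, with 1 library per animal. All were put on western diet at 10 weeks of age, lost their ovaries by surgery 6 weeks later and were given degarelix, which blocks the receptor of gonadotropin-releasing hormone. Osmotic pumps held vehicle alone for 5 rats (the vehicle group) or follicle-stimulating hormone (FSH, a daily dose of 6 µg per kg) for 4 rats (the FSH group). Food was limited to hold body weight for 12 days and free for 7 days, and liver was taken at 19 weeks of age after 4 h without food. No group had intact ovaries or was free of degarelix, so the comparison is of added FSH in animals whose own gonadotropins were blocked.

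Liver cells build triglyceride from glycerol 3-phosphate by adding fatty acyl chains in sequence. Glycerol-3-phosphate acyltransferases (GPAT) make lysophosphatidate, acylglycerolphosphate acyltransferases (AGPAT) make phosphatidate, lipins remove its phosphate to give diacylglycerol, and diacylglycerol acyltransferases (DGAT) add the last chain. Monoacylglycerol acyltransferases (MOGAT) reach diacylglycerol by another route, best known from the intestine. The product is stored in lipid droplets or exported in very-low-density lipoprotein.

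Library totals lay between 19295580 and 28672439 counts with vehicle and between 23430807 and 27008941 counts with FSH. Levels are given in CPM, counts per 1e+06 scaled counts of the library, and a single read was worth 0.0353 to 0.0531 CPM. FSH replicate 1 stood apart, with Alb, the albumin gene, at 19.4% of its counts and at 10.5 to 16.7% in the other 8 libraries. FSH replicate 3 was the lowest, at 10.5%. The liver label was borne out by hepatocyte markers, with all 8 in the table. Their summed levels were 137186 CPM (FSH replicate 3) to 241433 CPM (FSH replicate 1) with FSH and 163547 to 206539 CPM with vehicle. Most of each sum was Alb.

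None of the enzymes passed the test between the groups. Of the 10 members, 8 had enough reads to be tested, 6 with a fold change below 0 and 2 above it. Their log2 fold changes (FSH over vehicle) had a median of −0.08, beside 0.0019 over all 11924 genes tested, of which 49.5% were below 0. With edgeR's quasi-likelihood test 0 of the 8 passed an adjusted p (FDR) of 0.05, and 0.0335% of all tested genes did. One member, Lpin2, had an unadjusted p under 0.05, where 11.6% of all tested genes did, 5.14% lower and 6.42% higher with FSH. DESeq2 and limma-voom also called 0 of the 8, where they called 1.64% and 0.0503% of all genes with an adjusted p. The ranges of the FSH and vehicle libraries overlapped in all 8 members, while 4.11% of all tested genes had ranges that did not overlap. In whole liver, fewer cells of a type and less RNA per cell cannot be told apart.

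**Figure D1:**
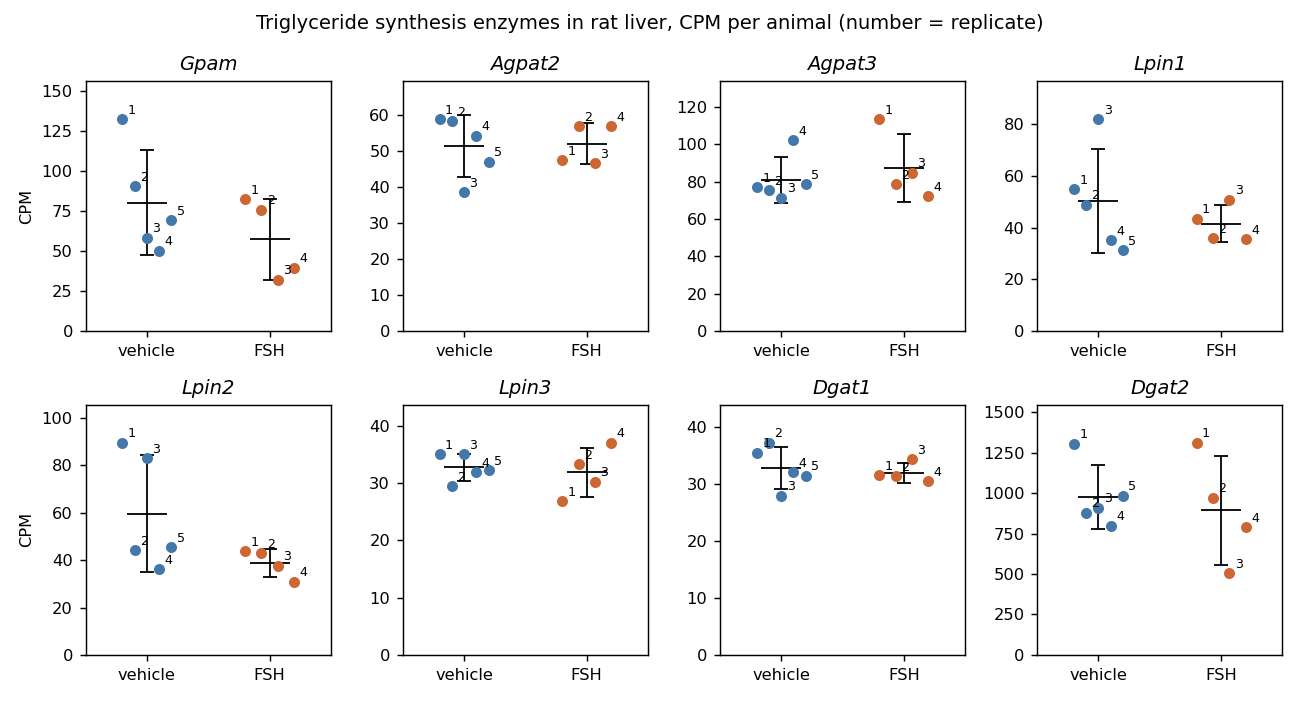
CPM (vertical axes, starting at 0) of the 8 tested enzymes in the vehicle and FSH libraries. Points are animals with their replicate number, and the bars are the mean and SD of 5 vehicle and 4 FSH libraries. The groups overlap in each panel, and the scatter is wide for Gpam, Lpin1, Lpin2 and Dgat2.

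Gpam, the mitochondrial GPAT that starts the pathway, varied more between animals than between groups. Gpam (ENSRNOG00000015124) stood at 132, 90.6, 58.4, 50.3 and 69.4 CPM in vehicle replicates 1 to 5. In FSH replicates 1 to 4 it stood at 82.5, 75.9, 32.2 and 39.6 CPM. FSH replicates 3 and 4 lay below every vehicle library, whereas FSH replicates 1 and 2 lay above 3 of the 5. The mean was 57.5 ± 25.3 CPM (SD, n = 4) in the FSH group against 80.2 ± 32.9 CPM (n = 5) in the vehicle group. The log2 fold change was −0.48 (SE 0.34, FDR 0.635 in edgeR), with a 95% interval from −1.23 to 0.28. Its size rested on single animals: leaving out vehicle replicate 1 gave −0.22, and leaving out FSH replicate 1 gave −0.70.

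Gpat4 did not share those low values. This gene, which encodes a microsomal form, averaged 70.8 ± 11.7 CPM in the FSH group against 65.0 ± 10.6 CPM in the vehicle group (a log2 value of 0.12, SE 0.14, FDR 0.785 in edgeR). In FSH replicates 3 and 4, where Gpam was lowest, Gpat4 was at 79.5 and 81.4 CPM. The count of Gpam divided by that of Gpat4 in the same library was 0.406 and 0.486 there, 1.45 and 1.16 in FSH replicates 1 and 2, and between 0.896 and 2.0 in the vehicle libraries. This ratio is read between libraries only, since gene length does not cancel between the genes. Gpat4 was picked for this comparison after its values were seen.

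The AGPAT enzymes differed between the groups by less than the spread between animals. Agpat2 (ENSRNOG00000019466), whose loss causes congenital lipodystrophy in humans, stood at 58.8, 58.2, 38.5, 54.2 and 46.9 CPM in the vehicle animals and at 47.4, 56.8, 46.5 and 56.9 CPM in the FSH animals. The lowest was vehicle replicate 3, and the FSH values all lay inside the vehicle range. Its log2 fold change was 0.02 (SE 0.13, FDR 0.975 in edgeR), with a 95% interval from −0.27 to 0.30. The sign turned in 4 of the 9 fits that left out 1 animal and, at −0.002, with library totals as the only scaling.

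Agpat3 (ENSRNOG00000001205), an acyltransferase of the endoplasmic reticulum and Golgi, stood at 77.0, 75.4, 71.4, 102 and 78.8 CPM with vehicle and at 113, 78.8, 84.7 and 72.1 CPM with FSH. One animal in each group was high, vehicle replicate 4 and FSH replicate 1. The log2 fold change was 0.11 (SE 0.14, FDR 0.821 in edgeR, 95% interval −0.21 to 0.43), and −0.04 without FSH replicate 1. For both AGPAT genes the interval leaves out a change of 1.5 times in either direction.

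Among the members, a lipin had the lowest fold change. Lpin2 (ENSRNOG00000014876), the phosphatidate phosphatase of this family best known from liver, stood at 89.5, 44.2, 83.1, 36.3 and 45.4 CPM in vehicle replicates 1 to 5. In the FSH replicates it stood at 43.9, 43.0, 37.6 and 30.9 CPM. Vehicle replicates 1 and 3 stood well above every other library, the other 3 vehicle animals lay among or just above the FSH animals, and all 4 FSH animals lay below the vehicle median. The mean was 38.8 ± 5.99 CPM (n = 4) in the FSH group against 59.7 ± 24.7 CPM (n = 5) in the vehicle group. The log2 fold change of −0.62 (SE 0.27, 95% interval −1.21 to −0.03) did not pass (FDR 0.413 in edgeR). With 1 animal left out at a time it lay between −0.76 and −0.43, with FDRs in edgeR from 0.347 to 0.620, and the value nearest 0 came without vehicle replicate 1. The unadjusted p stayed under 0.05 in 3 of those 9 fits, so in the other 6 the 95% interval took in 0, and with limma-voom it was not under 0.05 either.

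Lpin1 (ENSRNOG00000004377), a phosphatase that also acts as a transcriptional coactivator and is induced by fasting in liver, stood at 54.8, 48.9, 82.0, 35.1 and 31.3 CPM with vehicle and at 43.5, 36.0, 50.9 and 35.7 CPM with FSH. Vehicle replicate 3 was the highest library, as it was next to highest for Lpin2, and all FSH values lay within the vehicle range. The log2 fold change was −0.28 (SE 0.25, FDR 0.716 in edgeR, 95% interval −0.85 to 0.28) and −0.04 without vehicle replicate 3.

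Lpin3 (ENSRNOG00000016636), the remaining family member, stood at 35.1, 29.5, 35.0, 31.9 and 32.3 CPM with vehicle and at 26.8, 33.3, 30.3 and 37.0 CPM with FSH. The FSH animals held both its lowest and its highest value. Its log2 fold change was −0.04 (SE 0.10, FDR 0.915 in edgeR, 95% interval −0.26 to 0.18), and 0.03 without FSH replicate 1. Summed over the 3 lipins, the FSH libraries lay between 104 and 119 CPM and the vehicle libraries between 103 and 200.1 CPM. The vehicle libraries above the FSH range were replicates 1, 2 and 3, at 179, 123 and 200.1 CPM.

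The stretches before the start sites of the 3 genes with the lowest fold changes are shown as a description. Of these, only that of Lpin2 stood apart in base composition. RefSeq promoter windows on the GRCr8 build were at hand for 7 of the 10 members, and none for Dgat1, Dgat2 and Mogat2. The counts were made on another build, rn6, and which start sites these livers used was not tested. Each sequence is the 250 bases before the listed start, with any match to a searched motif in capitals. They lie at chr1:264175912-264176161, minus strand, for Gpam, chr6:45108943-45109192, minus strand, for Lpin1, and chr9:118530105-118530354, plus strand, for Lpin2.
Gpam: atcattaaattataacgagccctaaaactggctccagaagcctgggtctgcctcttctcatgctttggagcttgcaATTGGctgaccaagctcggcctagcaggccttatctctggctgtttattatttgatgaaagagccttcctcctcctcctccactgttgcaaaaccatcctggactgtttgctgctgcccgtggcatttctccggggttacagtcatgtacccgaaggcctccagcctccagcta
Lpin1: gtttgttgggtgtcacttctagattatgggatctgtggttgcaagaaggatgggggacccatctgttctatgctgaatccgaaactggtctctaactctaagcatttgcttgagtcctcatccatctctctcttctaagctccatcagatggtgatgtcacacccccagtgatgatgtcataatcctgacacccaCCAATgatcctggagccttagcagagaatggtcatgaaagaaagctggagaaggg
Lpin2: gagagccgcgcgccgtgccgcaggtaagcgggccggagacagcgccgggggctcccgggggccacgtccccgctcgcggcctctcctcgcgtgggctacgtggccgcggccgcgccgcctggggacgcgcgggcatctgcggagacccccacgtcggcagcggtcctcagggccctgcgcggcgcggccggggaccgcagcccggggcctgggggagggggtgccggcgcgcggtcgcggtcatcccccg

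Lpin2's window is 82.4% G and C, those of Gpam and Lpin1 51.2% and 47.2%, and the median of all 33469 windows is 51.2%. The capitals mark the CCAAT box (CCAAT, read as ATTGG on the other strand), the letters bound by nuclear factor Y. It was present in the windows of Gpam, Lpin1, Lpin3 and Mogat1, 4 of 7 members, and in 34.0% of all windows. The sterol regulatory element (TCACNCCAC), the E-box CACGTG, the cyclic AMP response element (TGACGTCA) and its shorter core (TGACG, contained in the longer motif) were searched on both strands and matched in 0 of the 7. They matched in 0.974%, 5.59%, 1.59% and 18.2% of all windows. The nuclear receptor core site (AGGTCA) matched in Agpat3 and Mogat1, and in 14.1% of all windows. A match is a description of these letters and no evidence of binding.

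DGAT enzymes close the pathway, and the 2 genes behaved differently between animals. Dgat2 (ENSRNOG00000016573), which esterifies newly made fatty acids and is the most counted member, stood at 1307, 879.6, 909.8, 798 and 986 CPM with vehicle. With FSH it stood at 1311, 973, 506 and 789.7 CPM. FSH replicate 1 lay just above the highest vehicle animal, and FSH replicate 3 lay far below every other library. The mean was 895 ± 337 CPM (n = 4) in the FSH group against 976 ± 197 CPM (n = 5) in the vehicle group, a log2 fold change of −0.13 (SE 0.24, FDR 0.882 in edgeR, 95% interval −0.66 to 0.41). The sign rested on 1 animal: leaving out FSH replicate 3 gave 0.07, leaving out vehicle replicate 1 gave 0.003, and leaving out FSH replicate 1 gave −0.37.

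Dgat1 (ENSRNOG00000028711), an unrelated protein that catalyses the same reaction and esterifies mainly fatty acids taken up or recycled, stood at 35.5, 37.3, 27.9, 32.2 and 31.5 CPM with vehicle and at 31.6, 31.4, 34.4 and 30.5 CPM with FSH. All FSH values lay within the vehicle range. The log2 fold change was −0.04 (SE 0.09, FDR 0.9 in edgeR), and its 95% interval from −0.24 to 0.16 was the narrowest among the members. Its sign turned without vehicle replicate 2 (0.005). In FSH replicate 3 the count of Dgat2 was 14.7 times that of Dgat1, against 25.9 to 41.5 times in the other FSH libraries and 23.6 to 36.8 times in the vehicle libraries.

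The MOGAT genes were barely detected. Mogat1 (ENSRNOG00000014692) had 1, 2, 0, 0 and 1 counts in vehicle replicates 1 to 5 and 2, 1, 1 and 0 counts in FSH replicates 1 to 4. Mogat2 (ENSRNOG00000027228) had 4, 3, 6, 7 and 4 counts with vehicle and 11, 2, 1 and 3 counts with FSH. Neither had enough reads to be tested, and with so few counts a difference between the groups was not detectable at this depth. Mogat2 is the protein-coding gene next to Dgat2 in RefSeq's GRCr8 gene table. Of the 4 intestinal markers in the table, Lgals4 and Vil1 had between 0 and 6 counts per library, Fabp2 had 64 to 151, and Apoa4, an apolipoprotein gene that liver also expresses, had 8878 to 37489. Their summed level was 345 to 1492 CPM with FSH and 453 to 1231 CPM with vehicle, mostly from Apoa4, and their part in the MOGAT counts was not tested.

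The members differed in their spread between animals of the same group. The SD of log2 CPM within groups was 0.61 for Gpam, 0.47 for Lpin2, 0.45 for Lpin1 and 0.43 for Dgat2. It was 0.24 for Agpat3, 0.22 for Agpat2, 0.15 for Lpin3 and 0.13 for Dgat1. The median was 0.33 over the 8 members and 0.20 over all tested genes. Among genes whose mean level lay within 2-fold of theirs, Gpam, Lpin2, Lpin1 and Dgat2 exceeded the SD of 97.5%, 95.9%, 95.1% and 90.4%, Agpat3 and Agpat2 exceeded 80.6% and 78.3%, and Lpin3 and Dgat1 56.3% and 44.4%. From the lowest to the highest library, Gpam ranged 4.11-fold, Lpin2 2.90-fold and Dgat1 1.33-fold. This comparison of spreads was drawn after the values were seen and was given no test.

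**Figure D2:**
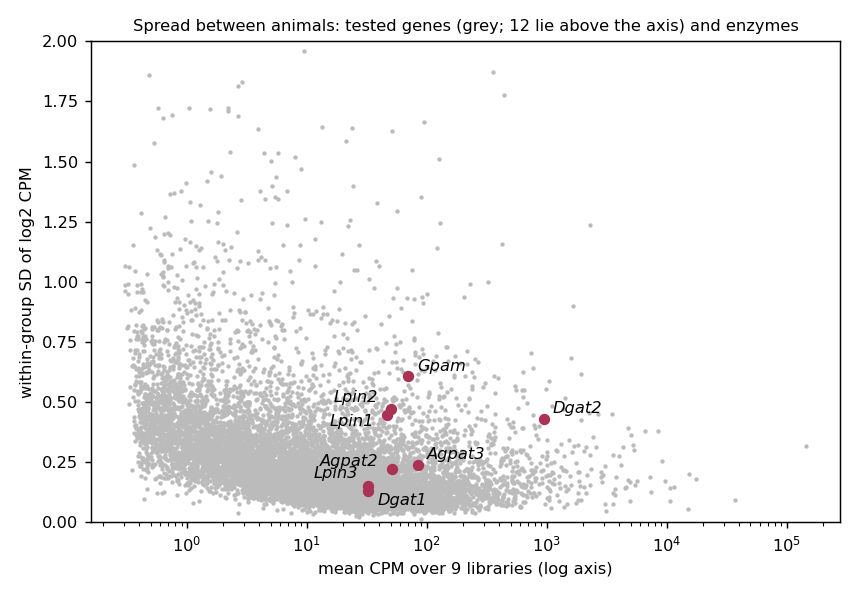
Within-group SD of log2 CPM (vertical axis) against mean CPM over the 9 libraries (horizontal, log axis) for the tested genes, with the 8 enzymes marked. Gpam, Lpin1, Lpin2 and Dgat2 lie at 0.43 or above, and Dgat1 and Lpin3 at 0.15 or below.

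Gpam, Dgat2, Lpin1 and Lpin2, the members of widest spread, did not move as 1 block. Relative to the vehicle mean, FSH replicate 3 was at −1.22 in Gpam and −0.93 in Dgat2 on the log2 scale, but at 0.10 in Lpin1. Vehicle replicate 3 was at 0.79 in Lpin1 and 0.57 in Lpin2, but at −0.37 in Gpam and −0.08 in Dgat2. Vehicle replicate 1 was above the mean in all 4, at 0.81 in Gpam, 0.68 in Lpin2, 0.44 in Dgat2 and 0.21 in Lpin1. Among these 4, the profiles of Gpam and Dgat2 lay closest, with a root mean square difference of 0.32 over the 9 libraries after centring each gene, followed by Lpin1 and Lpin2 with 0.34, and Gpam and Lpin1 were farthest apart with 0.67.

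**Figure D3:**
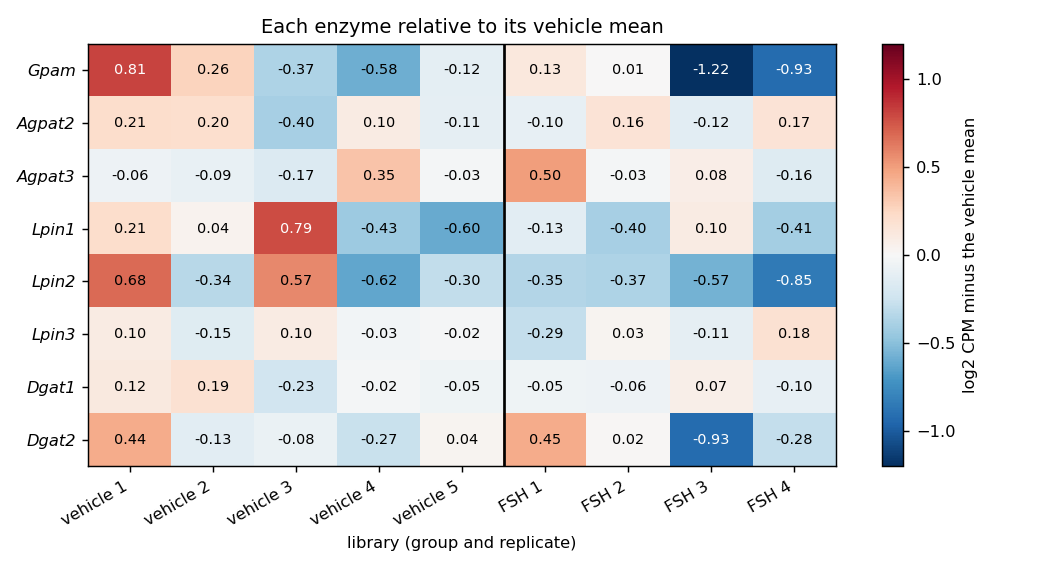
Log2 CPM minus the vehicle mean for the 8 enzymes (rows) in the 9 libraries (columns, with a line between the groups); red is higher and blue lower. Gpam and Dgat2 are lowest in FSH replicate 3, and Lpin1 is highest in vehicle replicate 3.

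By the same measure, over 10282 other genes with a mean of at least 1 CPM, the nearest to Gpam was Fign (0.25) and the nearest to Dgat2 was Serpina6, which encodes corticosteroid-binding globulin (0.15). The nearest to Lpin2 was Nupr1, a stress-induced nuclear protein (0.17), and to Lpin1 it was Rasgef1b (0.17). Dgat1 and Lpin3 lay nearest to Pisd and Churc1 (0.03 and 0.04), and Agpat2 and Agpat3 to Stx17 and Calcrl (0.08 and 0.07). With 9 libraries and so many genes a close profile is always found, so these are descriptions of likeness only.

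**Figure D4:**
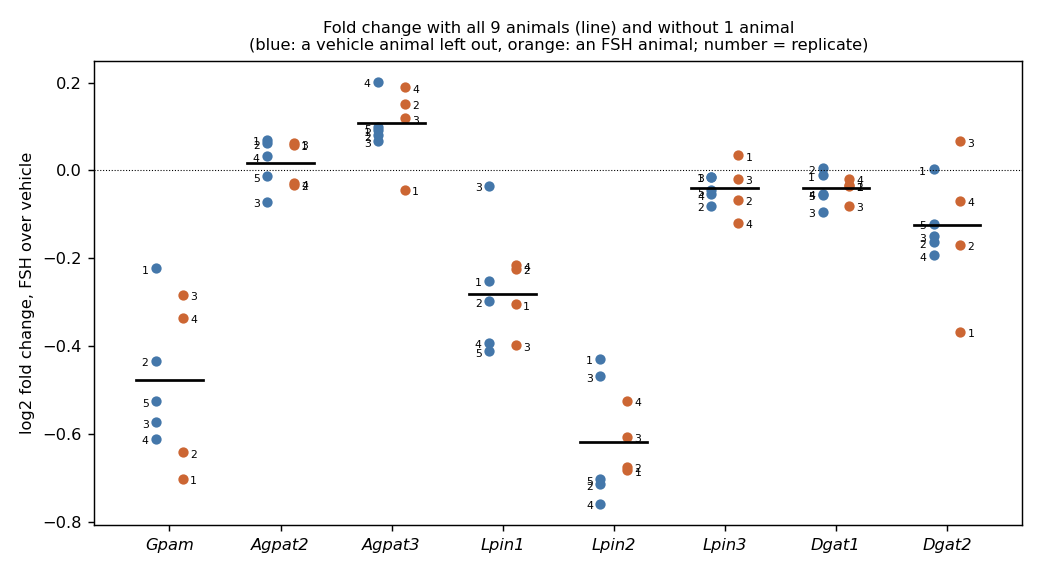
Log2 fold change of FSH over vehicle (vertical axis) for the 8 enzymes with all 9 animals (line) and with 1 animal left out (points, numbered by replicate). The value of Lpin2 stays between −0.76 and −0.43, and that of Lpin1 comes to −0.04 without vehicle replicate 3.

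Genes around the pathway were taken from 6 lists with 52 genes, of which 48 were tested. With edgeR's quasi-likelihood test 0 of the 48 passed, while 12 had an unadjusted p under 0.05, 9 higher and 3 lower. Over all tested genes those shares were 11.6%, 6.42% and 5.14%. DESeq2 called 2 of the 48, Creb3l3 and Aqp9, where it called 1.64% of all genes with an adjusted p, and limma-voom called 0. The median log2 fold change of the 48 was 0.09, with 27 above 0 and 21 below. The ranges of the groups did not overlap in 5 of the 48, and in 4.11% of all tested genes.

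Among genes of glycerol uptake and glycerol 3-phosphate metabolism, 3 of 5 tested were above 0 and 0 passed in edgeR. Aqp9, the channel through which hepatocytes take up glycerol, stood at 193, 188, 162, 163 and 186 CPM with vehicle and at 70.5, 144, 131 and 65.6 CPM with FSH. Every FSH library lay below every vehicle library. Its log2 fold change was −0.80 (SE 0.23, FDR 0.258 in edgeR), and DESeq2 called it (adjusted p = 0.0332). Gpd1, which makes glycerol 3-phosphate from a glycolytic intermediate, had 0.15 (SE 0.13, FDR 0.702 in edgeR), and its mitochondrial counterpart Gpd2 0.10 (SE 0.20, FDR 0.888 in edgeR), a value of −0.09 without FSH replicate 1.

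The remaining acylation isoenzymes had 5 of 8 above 0 and 0 past the threshold in edgeR. Lpgat1, a lysophospholipid acyltransferase, had 0.24 (SE 0.09), Agpat1 0.20 (SE 0.14) and Agpat4 −0.23 (SE 0.20), at FDRs in edgeR of 0.364, 0.633 and 0.702. The value of Lpgat1 was 0.15 without FSH replicate 1.

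Among regulators of lipins and other phosphatidate phosphatases, 4 of 7 were above 0 and 0 passed in edgeR. Creb3l3, a hepatic transcription factor of the fasted state, stood at 669, 694, 669.8 and 708 CPM with FSH, above the 487 to 557 CPM of every vehicle library. Its log2 fold change was 0.37 (SE 0.07, FDR 0.175 in edgeR), and DESeq2 called it (adjusted p = 7.56e-07). The lipid phosphatases Plpp3 and Plpp1 had 0.33 (SE 0.15) and 0.23 (SE 0.12), at FDRs in edgeR of 0.455 and 0.505, and these were 0.18 and 0.10 without FSH replicate 1.

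Enzymes of phospholipid synthesis and other uses of phosphatidate or diacylglycerol had 8 of 13 above 0 and 0 past the threshold in edgeR. Cept1, which transfers choline or ethanolamine phosphate to diacylglycerol, stood at 101, 102, 99.0 and 105 CPM with FSH and at 70.1 to 91.7 CPM with vehicle, without overlap (0.33, SE 0.09, FDR 0.25 in edgeR). Dgkq, a diacylglycerol kinase, also had no overlap (0.28, SE 0.08, FDR 0.251 in edgeR). Chka, the choline kinase, had 0.76 (SE 0.28, FDR 0.355 in edgeR), and 0.47 without FSH replicate 4, its highest library at 60.5 CPM.

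Triglyceride breakdown genes had 4 of 8 above 0 and 0 past the threshold in edgeR. Of the 8, 5 had an unadjusted p under 0.05 in edgeR, 4 higher and 1 lower. Over all tested genes those shares were 11.6%, 6.42% and 5.14%. Abhd5, the coactivator of the lipase ATGL, had 0.48 (SE 0.15), hormone-sensitive lipase Lipe 0.25 (SE 0.08) and the ATGL inhibitor Hilpda 0.69 (SE 0.25), at FDRs in edgeR of 0.307, 0.321 and 0.353. Lipe had no overlap, at 11.1 to 13.4 CPM with FSH and 9.18 to 10.6 CPM with vehicle. Pnpla2, the gene of ATGL itself, was listed with 1 count in 1 library and 0 in the others. All 13 mitochondrially encoded protein genes, which every cell uses, were also listed at 0 in this table, so this is not read as absence.

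Of the transcription factors known for these genes, 3 of 7 were above 0 and 0 passed in edgeR. Srebf1, which encodes SREBP-1, the activator of Gpam and other lipogenic genes, stood at 757, 1034, 445, 834 and 554 CPM with vehicle and at 519, 582, 412 and 459.7 CPM with FSH. Its log2 fold change was −0.56 (SE 0.22, FDR 0.39 in edgeR). Its highest library was vehicle replicate 2, whereas that of Gpam was vehicle replicate 1, and both were lowest in FSH replicate 3. Ppara had 0.38 (SE 0.25) and Hnf4a 0.24 (SE 0.13), at FDRs in edgeR of 0.607 and 0.498, and Ppara's value was 0.21 without FSH replicate 2.

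**Figure D5:**
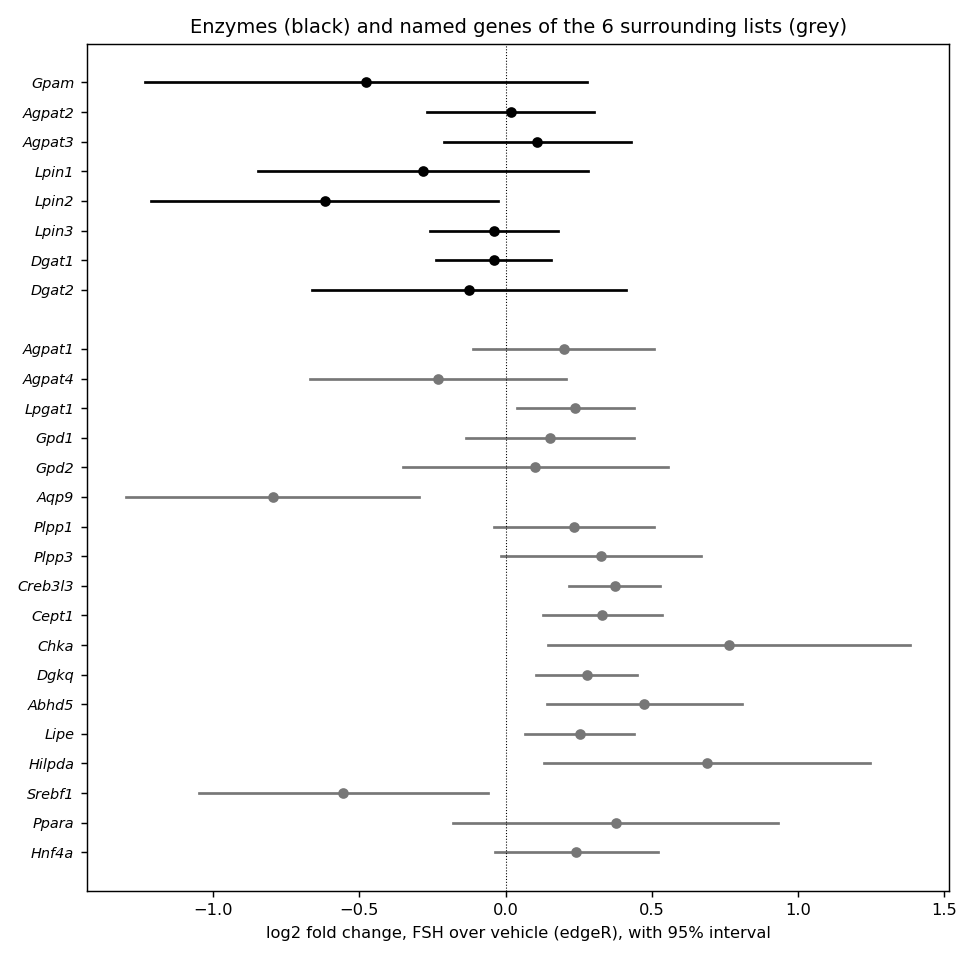
Log2 fold change of FSH over vehicle with its 95% interval (horizontal axis) for the 8 enzymes (black) and the named genes of the 6 lists (grey). With all 9 animals the interval of Lpin2 alone leaves out 0 among the enzymes, it takes in 0 in 6 of the 9 fits without 1 animal, and none passed after adjustment.

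Markers of other cell types were measured beside these values. Stellate cell markers, with 0 of 6 fold changes above 0, summed to 166 to 198 CPM with FSH and 209 to 275 CPM with vehicle. In edgeR 0 of the 6 passed, and 2 had an unadjusted p under 0.05, as 11.6% of all tested genes did. Most of the sum was Col3a1, with 2545 to 3020 counts per library with FSH and 2804 to 4899 with vehicle. These counts are not scaled, and the 2804 came from vehicle replicate 5, the library with the lowest total. On the CPM scale the ranges of Col3a1 did not overlap. Lrat overlapped on that scale too, and in counts, with 347 to 461 with FSH and 331 to 601 with vehicle. Endothelial markers summed to 164 to 210.3 CPM with FSH and 142 to 189 CPM with vehicle. Of these, 4 of 5 tested were above 0, 2 had an unadjusted p under 0.05 in edgeR and 0 passed. Erythroid markers summed to 119 to 485 and 73.0 to 154 CPM, highest in FSH replicate 3, where Gpam and Dgat2 were lowest. All 3 erythroid markers tested were above 0, 1 with an unadjusted p under 0.05 in edgeR, and 0 passed. Kupffer cell markers summed to 325 to 483 CPM with FSH and 176 to 538 CPM with vehicle, with 3 of 7 above 0 and 0 at an unadjusted p under 0.05 in edgeR. Hepatocyte markers, whose sum was lowest in FSH replicate 3, had 2 of 8 above 0. Most of that sum was Alb, so its order among the libraries is mainly that of Alb and not of the other markers. Of those 8, 2 had an unadjusted p under 0.05 in edgeR and 0 passed. The part of these cells in the members' values was not tested. Of the 5 markers of adjacent fat in the table, Lep was at 0 in all libraries, and Adipoq and Plin1 had at most 4 counts per library. Fabp4 had 7 to 36 counts and Cidec, a lipid-droplet protein gene, 1362 to 3134. The 5 summed to 91.1 to 129 CPM with FSH and 72.1 to 107 CPM with vehicle, with 1 of the 2 tested at an unadjusted p under 0.05 and 0 past the threshold in edgeR.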

How the data were processed

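The authors deposited raw read counts, as whole numbers, for 24496 genes and 9 libraries (1 per animal). RNA was made into paired-end, strand-specific mRNA libraries, per the labels' protocols. STAR, edgeR, DESeq2 and rn6 appear in the submitters' processing notes without versions or roles. Which annotation was counted, and on which strand, is not given in the sources used here, so reads of overlapping antisense genes cannot be told apart from a member's own.

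Between the groups (4 FSH, 5 vehicle) the test was that of edgeR 4.0.16 under R 4.3.3 (quasi-likelihood F-test, 2-sided, TMM scaling, filterByExpr by group, Benjamini-Hochberg adjustment over the 11924 genes kept). Those genes hold 99.96% of all counts. Standard errors and 95% intervals were derived from each F statistic. Log2 CPM used a prior count of 2. Within a group, no library repeated another (chi-square over its degrees of freedom was 25.9 or more for each pair of the same group).

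The members and lists were chosen with earlier results of these data known. Named genes were the 10 members and, from each list, those past FDR 0.05 or else the 3 with the smallest p. Of the list genes, 51 of 52 were in the table under their current or older symbols. On simulated counts for this comparison (11924 genes, 200 changed), 24.6%, 85.7% and 97.2% of genes changed by 0.5, 1 and 2 on the log2 scale were called, as were 5 of 11724 unchanged genes. The changed genes were drawn at random from all tested genes, whose median within-group SD was 0.20. These shares therefore do not hold for Gpam, Lpin2, Lpin1 and Dgat2, with SDs of 0.43 to 0.61. For the other members they are likely too high as well, because the adjustment depends on how many genes pass. In the simulation 70 genes were called at a change of 2 alone, whereas 4 genes passed in the real data.

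Alternatives were DESeq2 1.42.0, sample-weighted limma-voom (limma 3.58.1), RLE factors, library totals alone, 2 other filters, a replicate block and leaving out each animal. Promoter windows came from RefSeq on GRCr8, and no coordinates were moved between builds.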

Additional observations from a re-analysis of the deposited data

Results flagged for a closer look

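Within each group, the highest and lowest animal of 54 sets of CPM values were compared with the spread of the others, and 3 stood apart, where chance gives about 2.7. Agpat3 was high in vehicle replicate 4, at 102 CPM, with the next vehicle animal at 78.8 CPM. Pnpla3, which encodes a lipid-droplet protein with lipase and acyltransferase activity and was named after its values were seen, was high in vehicle replicate 1, at 2190.2 CPM, with the next at 564 CPM. Pnpla3 was also high in FSH replicate 1, at 387 CPM, with the next at 61.7 CPM. The chance figure does not hold for the sets of Pnpla3, since that gene was picked for its values.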

How the results depend on the processing

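Over 16 alternatives, 0 of the 8 tested members passed in any, and their median log2 fold change stayed below 0 (−0.17 to −0.01). Over all genes the count past FDR 0.05 was 4 with edgeR, 184 with DESeq2 (115 higher and 69 lower), 6 with limma-voom and 0 to 4 with 1 animal left out. It was 0 without vehicle replicate 1 or 4 or FSH replicate 1 or 3, 1 without FSH replicate 4 and 2 without vehicle replicate 3 or 5. The cause was not tested. Leaving out 1 animal moved Agpat2 from −0.0712 to 0.0700, Agpat3 from −0.0437 to 0.202, Lpin3 from −0.120 to 0.0348, Dgat1 from −0.0939 to 0.00508, Dgat2 from −0.368 to 0.0668 and Gpd2 from −0.0949 to 0.235, each across 0. With library totals alone Agpat2 was at −0.0023. The median of all genes moved by under 0.1 with the scaling. Gpam, Lpin1 and Lpin2 stayed below 0 in all 16 alternatives (−0.70 to −0.22, −0.41 to −0.04 and −0.76 to −0.43). The labels' replicate numbers name individual animals. Over the tested genes as a whole, deviations of same-numbered animals correlated between −0.04 and 0.04, so no pairing was seen there. That measure cannot show whether the numbers are linked in some genes only, which was not tested. With a replicate block 5 genes passed, 0 of them members. In that fit 3 members (Gpam, Lpin1 and Lpin2) had an unadjusted edgeR p under 0.05, where 1167 of all 11924 tested genes did. The SE of Gpam was 0.12 with the block and 0.34 without it. No FSH library correlated best with its own number. Depth was too low to test Mogat1 and Mogat2.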

Other observations

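Pnpla3, described after its values were seen, had the widest ratio of highest to lowest CPM among the 48 tested genes listed around the pathway. It stood at 2190.2, 564, 73.0, 179.7 and 432 CPM in vehicle replicates 1 to 5 and at 387, 61.7, 24.8 and 51.0 CPM in FSH replicates 1 to 4. The groups overlapped, with FSH replicate 1 above 2 of the 5 vehicle animals. Its log2 fold change was −2.39 (SE 1.06, FDR 0.425 in edgeR), or −1.25 when vehicle replicate 1 was left out and −3.91 when FSH replicate 1 was left out. Pnpla3 and Gpam were both highest in vehicle replicate 1 and lowest in FSH replicate 3. Dgat2 was lowest in that animal too.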
